A study of Homo sapiens with 10 samples.

Results

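The genes of 10 enzymes that make serine, split it to glycine and carry its carbon on folate were followed over the hepatic differentiation of human embryonic stem cells. They were listed by name, with earlier results of these data known: PHGDH, PSAT1, PSPH, SHMT1, SHMT2, MTHFD1, MTHFD2, MTHFD1L, GLDC and TYMS. All 10 were found among the 12125 genes of the deposited expression table, and all 10 reached a value of at least 50 in some library. Bulk RNA was sequenced from H1 cells, a line of human embryonic stem cells, in 1 library for each of 10 days. No other cell line, clone or culture was analysed, so every difference between days is a difference between single libraries and none has a replicate check.

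The library of day 0 was of H1 cells with no factor of the protocol added. Per the methods, the medium changed with the factors. H1 cells were kept in a stem cell medium, and the Activin A step used supplemented RPMI without insulin. The next 2 steps used it with insulin, and the OSM step used a hepatocyte culture medium. Day, factor and medium therefore cannot be told apart. The libraries of days 1, 2 and 3 were taken under 100 ng/ml Activin A, those of days 5 and 7 under 30 ng/ml FGF4 with 20 ng/ml BMP2, and those of days 9 and 11 under 20 ng/ml HGF with KGF. The labels put days 13 and 21 under Oncostatin M (OSM, 20 ng/ml), but in the protocol's own count of days HGF and KGF end at day 13, so the factor behind that library is uncertain. The labels call the cells presumed definitive endoderm at days 1 to 3 (early at day 1), hepatoblasts at days 5 to 11 (early at day 5) and hepatocyte-like at days 13 and 21. All libraries come from the same genetic background, with no edited gene.

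Serine is built from a glycolytic intermediate in a short branch of 3 enzymes. Serine hydroxymethyltransferases then cleave it to glycine and pass a carbon unit to tetrahydrofolate, in the mitochondria and in the cytosol, and the folate enzymes convert that unit between the forms used for purines, thymidylate and methionine. Proliferating cells draw heavily on this route for nucleotides, and the adult liver also breaks glycine down through the glycine cleavage system. The values are whole numbers that the authors normalized for GC content. No correction for gene length is stated, so a gene is compared with itself between days, and levels are not compared between genes. The marker genes of the stages followed the labels only in part. The hepatoblast gene AFP stood at 18734 at days 7, 13 and 21, and HNF4A had 1044, 838 and 470. Both thus remained in the libraries labelled hepatocyte-like. For HNF4A this does not go against the label, since the paper also ties that gene to the making of hepatocytes. ALB was 168 at day 13, against 4866 at day 21. Over days 0, 3, 7, 13 and 21 the pluripotency genes POU5F1, NANOG and SOX2 summed to 5692, 1648, 120, 13 and 5, the endoderm genes SOX17, FOXA2 and CER1 to 8, 19714, 427, 149 and 54, and the hepatocyte genes ALB, TTR, SERPINA1 and APOA1 to 11, 58, 8406, 26397 and 45762. Collagen and other stromal genes also moved with the later days: COL1A1, COL1A2, COL3A1, LUM, DCN and POSTN summed to 738, 638, 4711, 38017 and 40570 on these days. In the last library 6 of 6 were at least 2-fold higher than in the first, as were 23.9% of the 9698 genes that reached 50 in either. Of the red blood cell genes, HBE1 had values of 0, 1, 3, 2968 and 1248, HBZ of 0, 0, 0, 444 and 428, and ALAS2 of 0, 2, 31, 148 and 56. Of 6 macrophage markers 2 were in the table, PTPRC and CD68, which summed to 39, 0, 6, 50 and 324, while 4 of 5 endothelial markers were in the table and summed to 535 in the first library, 1073 in that of day 13 and 482 in the last. Most of each sum was KDR, at 517, 823 and 302 in these libraries. CDH5 had 3, 152 and 120 there, TIE1 had 12, 60 and 48, and VWF had 3, 38 and 12. VWF was highest earlier, with 309, 299 and 31 at days 3, 5 and 7. On those days CDH5 had 9, 8 and 34, and TIE1 had 6, 3 and 16, so these markers did not share one course. The part of such cells in the values of the enzymes was not tested. In bulk RNA, fewer cells of a type and less RNA per cell cannot be told apart. Several markers stood at 18734, the highest value of the table: CER1 at day 3, AFP at days 7, 13 and 21, TTR and COL1A2 at days 13 and 21, and SERPINA1 at day 21. The sums do not show how far a gene differed between libraries where it stood at that value.

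The promoter windows of 4 of the genes are shown to set the serine and folate genes that moved together beside GLDC, whose course was different. Each runs from 250 bases before to 50 bases after the transcription start that RefSeq lists first for the gene, 5′ to 3′ on the gene's strand, in build GRCh38.p14. Of the 10 genes 8 had a window in the RefSeq table, all but PSPH and SHMT2. Capitals mark every match, on either strand, to the E-box CACGTG, the amino acid response letters TGATGNAA, the E2F-like letters TTTGGCGC and TTTCCCGC, and the CCAAT box, which reads ATTGG where it lies on the other strand. No marked letters overlap in these windows. PSAT1 lies at chr9:78296875-78297174 on the plus strand, MTHFD1 at chr14:64388103-64388402 on the plus strand, MTHFD1L at chr6:150866236-150866535 on the plus strand, where RefSeq lists 4 starts for the gene, and GLDC at chr9:6645680-6645979 on the minus strand.
PSAT1: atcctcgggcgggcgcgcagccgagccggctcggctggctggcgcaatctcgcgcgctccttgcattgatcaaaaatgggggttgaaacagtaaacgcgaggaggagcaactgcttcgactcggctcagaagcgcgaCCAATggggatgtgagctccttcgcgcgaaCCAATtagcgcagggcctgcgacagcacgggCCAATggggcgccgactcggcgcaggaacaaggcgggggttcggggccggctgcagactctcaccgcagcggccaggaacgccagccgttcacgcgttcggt
MTHFD1: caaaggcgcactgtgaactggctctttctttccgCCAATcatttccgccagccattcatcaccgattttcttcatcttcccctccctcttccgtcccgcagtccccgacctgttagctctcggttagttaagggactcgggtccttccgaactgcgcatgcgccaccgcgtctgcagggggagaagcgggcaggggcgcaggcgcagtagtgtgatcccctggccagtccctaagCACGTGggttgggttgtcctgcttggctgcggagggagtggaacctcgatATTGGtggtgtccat
MTHFD1L: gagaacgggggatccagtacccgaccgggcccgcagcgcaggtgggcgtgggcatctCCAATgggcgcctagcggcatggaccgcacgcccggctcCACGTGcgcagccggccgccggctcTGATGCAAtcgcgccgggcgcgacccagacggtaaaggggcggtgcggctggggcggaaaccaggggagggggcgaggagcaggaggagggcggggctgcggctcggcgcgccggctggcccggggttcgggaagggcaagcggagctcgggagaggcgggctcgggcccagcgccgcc
GLDC: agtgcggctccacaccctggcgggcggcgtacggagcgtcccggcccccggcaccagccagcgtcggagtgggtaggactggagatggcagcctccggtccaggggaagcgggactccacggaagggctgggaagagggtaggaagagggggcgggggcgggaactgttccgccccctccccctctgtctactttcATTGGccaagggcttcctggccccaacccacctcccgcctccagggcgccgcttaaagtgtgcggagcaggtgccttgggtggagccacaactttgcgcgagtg

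CCAAT was the letter group most of them held. It was in 7 of the 8 windows, all but that of TYMS, against 35.7% of the 27305 RefSeq windows and 36.9% of the 8713 windows that belong to genes of the table. PSAT1 held it at 3 places, 113, 83 and 52 bases before the start, and GLDC held it once, as ATTGG in the window printed, so on the strand opposite to the gene. The E-box was in 2 of the 8 windows, 15 bases before the start of MTHFD1 and 154 bases before that of MTHFD1L, against 7.43% of all windows and 10.1% of those of the table's genes. TGATGNAA was in the window of MTHFD1L alone, 129 bases before the start, against 3.67% and 1.62%. TTTCCCGC was in that of TYMS alone, 39 bases before the start on the strand opposite to the gene, against 1.66% and 2.61%, and TTTGGCGC was in none of the 8, against 0.659% and 1.14%. These matches describe the letters of the windows only.

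Most of these enzymes were at their lowest in the last library. Of the 10 genes 7 had their lowest value of the whole course at day 21, which was so for 28.3% of the 10746 genes that reached 50 in any library. The highest value lay at days 0 to 2 for 7 of the 10 (PHGDH, PSAT1, SHMT2, MTHFD1, MTHFD2, MTHFD1L and TYMS), against 39% of those genes. The highest value + 1 was 4.61 times the lowest for the median enzyme and 3.15 times for the median gene. The other 3 had their highest values later, PSPH and SHMT1 at day 11 and GLDC at day 9.

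**Figure D1:**
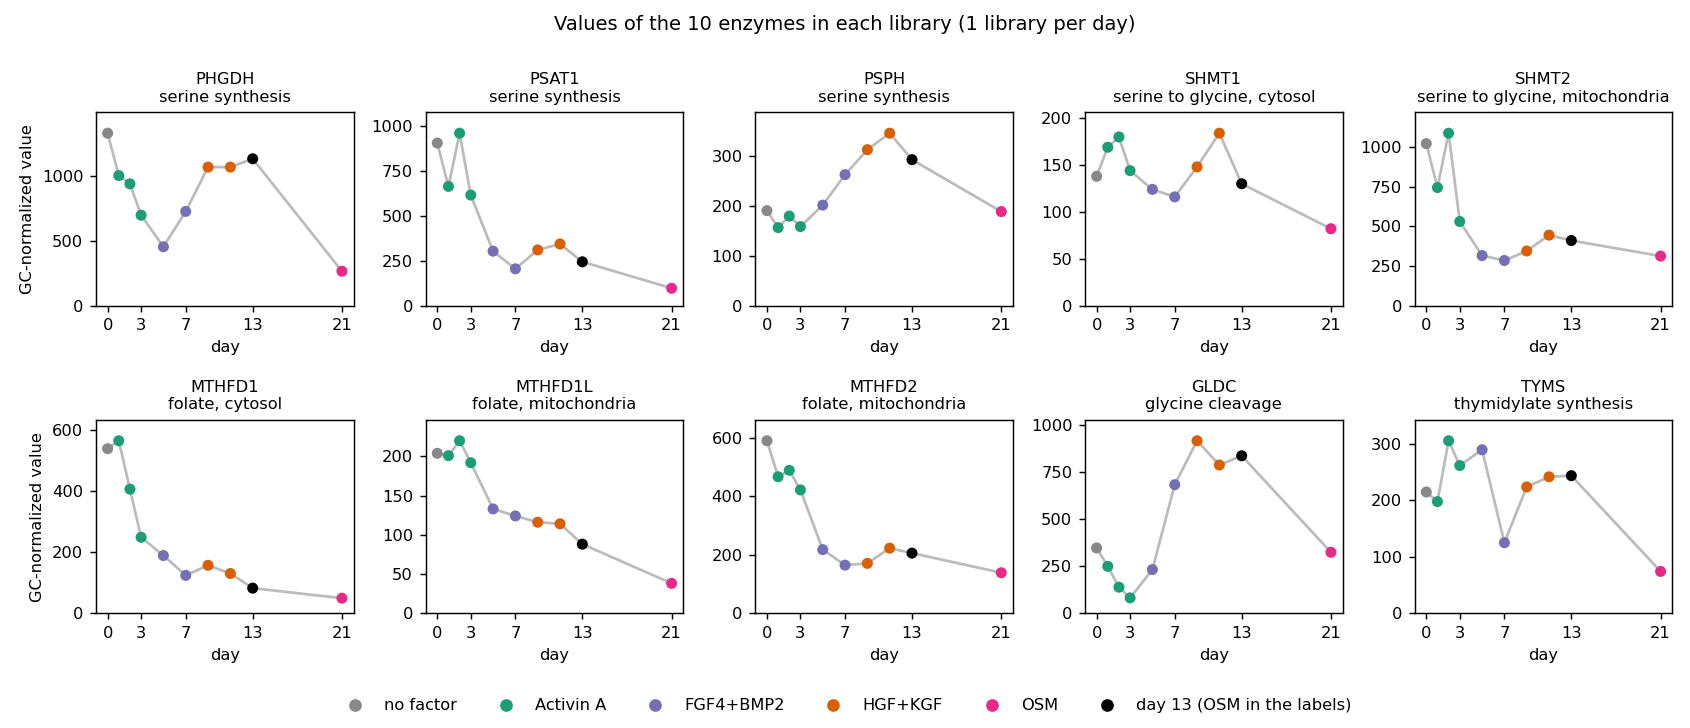
The GC-normalized value of each enzyme (vertical axis, from 0, its own scale per panel) on each day of differentiation (horizontal axis), with 1 point for each of the 10 libraries coloured by the factor in the labels. MTHFD1 went from 566 at day 1 to 49 at day 21, whereas GLDC dipped to 81 at day 3 and stood at 918 at day 9.

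The first enzymes make serine. PHGDH (ENSG00000092621, chr1:120202421-120277299 in the table, whose build is not named) oxidizes 3-phosphoglycerate and commits it to serine. Its values were 1326, 1000, 936 and 695 at days 0 to 3, 452 and 724 at days 5 and 7, 1065 in both libraries of days 9 and 11, 1129 at day 13 and 264 at day 21. It was thus high in the stem cells, low in the early hepatoblast library, high again from day 9 to day 13, and lowest in the last library, 5.02-fold below its highest. The difference of log2(value + 1) was −0.93 between days 3 and 0, 0.64 between days 13 and 7 and −2.09 between days 21 and 13.

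PSAT1 (ENSG00000135069, chr9:80912059-80944370 in the table), the aminotransferase that follows PHGDH, did not return to the same extent. It had values of 903, 662, 958 and 614 at days 0, 1, 2 and 3, then 302 and 204 at days 5 and 7, 309 and 342 at days 9 and 11, 243 at day 13 and 96 at day 21. The highest and lowest values differed 9.98-fold. All 6 libraries from day 5 on were below all 4 libraries up to day 3. On the log2 scale PSAT1 was lower by 1.58 at day 7 than at day 3, and the ratio of PHGDH to PSAT1 was 1.27 above that of day 0 in the library of day 7 and 1.66 above it in that of day 13, so the first and the middle enzyme of the branch parted after day 5.

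PSPH (ENSG00000146733, chr7:56078744-56119141 in the table), the phosphatase that releases serine, went the other way in the middle of the course. Its value was 190, 156, 179 and 158 at days 0 to 3, 201 and 262 at days 5 and 7, 312 and 345 at days 9 and 11, 292 at day 13 and 188 at day 21. The libraries of days 5 to 13 were all above those of days 0 to 3, and day 21 lay beside day 0, with a difference of −0.02 on the log2 scale. It passed the 2-fold size used here for a call in 0 of the 5 stage comparisons. Against PSAT1 its ratio stood 2.60 above that of day 0 in the day 7 library and 3.21 above it in the last, on the log2 scale.

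Serine is cleaved to glycine by SHMT2 in the mitochondria and SHMT1 in the cytosol, and these paralogues had different courses. SHMT2 (ENSG00000182199, chr12:57623110-57628714 in the table) had values of 1021, 744, 1087 and 530 at days 0 to 3, 315 and 284 at days 5 and 7, 344 and 444 at days 9 and 11, 410 at day 13 and 312 at day 21. It was highest at day 2 and lowest at day 7, a ratio of 3.83, and again each library from day 5 on was below each library up to day 3. SHMT1 (ENSG00000176974, chr17:18231187-18266801 in the table) stayed in a narrower band, at 138, 169, 180 and 144 at days 0 to 3, 124 and 116 at days 5 and 7, 148 and 184 at days 9 and 11, 130 at day 13 and 82 at day 21. Its highest and lowest values differed 2.24-fold, and no stage difference reached 2-fold. The ratio of SHMT2 to SHMT1 differed from that of day 0 by −1.01, −1.59, −1.67 and −0.96 over days 3, 7, 9 and 21, on the log2 scale. SHMT1 overlaps SMCR8 on the opposite strand in the annotation, and where strand is not used the reads of an overlap cannot be assigned to one of the genes.

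Among the folate enzymes the cytosolic one had the widest range. MTHFD1 (ENSG00000100714, chr14:64854749-64926722 in the table) carries 3 activities that convert one-carbon units between the formyl and methylene states. It had values of 540, 566, 407 and 249 at days 0 to 3, 189 and 124 at days 5 and 7, 157 and 130 at days 9 and 11, 82 at day 13 and 49 at day 21. The range was 11.6-fold, the widest of the 10, and the difference between days 21 and 0 was −3.44 on the log2 scale. It overlaps ZBTB25 on the opposite strand.

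The mitochondrial counterparts were lower late as well, with other timing. MTHFD2 (ENSG00000065911, chr2:74425689-74444692 in the table), the mitochondrial dehydrogenase and cyclohydrolase that is low in most adult tissues, had values of 589, 466, 488 and 421 at days 0 to 3, 217 and 164 at days 5 and 7, 170 and 222 at days 9 and 11, 205 at day 13 and 138 at day 21. Its largest step lay between days 3 and 5, and it was 1.35 lower on the log2 scale at day 7 than at day 3. MTHFD1L (ENSG00000120254, chr6:151186685-151423023 in the table), which releases formate from the mitochondria, had values of 204, 201, 220 and 192 at days 0 to 3, 133 and 124 at days 5 and 7, 116 and 114 at days 9 and 11, 88 at day 13 and 38 at day 21. Up to day 3 it hardly moved while MTHFD1 was already lower: the ratio of MTHFD1L to MTHFD1 over days 3, 7, 13 and 21 stood 1.03, 1.40, 1.50 and 1.04 above that of day 0 on the log2 scale. Values of MTHFD2 and PSAT1 may hold reads of near-identical copies, since the annotation used has 7 and 4 pseudogenes named after them and the table lists none of these.

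GLDC (ENSG00000178445, chr9:6532464-6645650 in the table), the decarboxylase of the glycine cleavage system, had a course unlike that of the folate enzymes. Its values were 347, 249, 138 and 81 at days 0 to 3, 232 and 684 at days 5 and 7, 918 and 789 at days 9 and 11, 838 at day 13 and 324 at day 21. The low point was the last Activin A library, and the 4 libraries of days 7 to 13 lay above all others. The difference was −2.09 between days 3 and 0, 3.06 between days 7 and 3, the only call upward among the 10 genes in any of these comparisons, and −1.37 between days 21 and 13. At day 21 it was back beside day 0 (−0.10). The ratio of GLDC to SHMT2, an enzyme that makes its substrate glycine, was above that of day 0 by 2.97 at day 9 and still by 1.61 in the last library, on the log2 scale.

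TYMS (ENSG00000176890, chr18:657604-673499 in the table) uses methylene-tetrahydrofolate to make thymidylate for DNA. It had values of 215, 198, 306 and 262 at days 0 to 3, 290 and 125 at days 5 and 7, 224 and 242 at days 9 and 11, 244 at day 13 and 74 at day 21. Days 7 and 21 were the low libraries, with day 7 between libraries of 290 and 224. The difference of −1.06 between days 7 and 3 rests on that 1 library, since at day 5 the difference from day 3 was 0.15. TYMS overlaps ENOSF1 on the opposite strand.

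Set against all genes, the enzymes were called lower in larger shares than the background in 4 of the 5 stage comparisons, and called higher in 1 instance. A call here is a difference of log2(value + 1) of at least 1 where the larger value is at least 50. Between days 3 and 0, 2 of 10 were lower (MTHFD1 and GLDC) and 0 were higher, against 9.07% and 11.1% of 8934 genes. Between days 7 and 3, 4 of 10 were lower (PSAT1, MTHFD1, MTHFD2 and TYMS), against 12.8% of 9100 genes, and 1 was higher (GLDC), against 13.2%. MTHFD1 lay just at the limit of the call there. With 1 library per day these shares are descriptions with no test.

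From day 7 to day 13 the median difference of the 10 was 0.27, against −0.05 for all genes. None of the 10 was called in either direction. For a group of 10 this is near the shares of all 8892 genes, 9.65% higher and 8.21% lower. Of the 10 differences 8 were above 0, TYMS at 0.96 and PHGDH at 0.64 being the largest. The share of all genes above 0 was not computed. MTHFD1 (−0.59) and MTHFD1L (−0.49) continued downward. Between days 21 and 13 all 10 were lower and 5 were called lower (PHGDH, PSAT1, MTHFD1L, GLDC and TYMS), against 9.08% of 8786 genes, while 0 were called higher, against 8.57%. The median difference of the 10 was −0.96 there, against −0.05 for all genes.

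Over the whole course, all 10 values of day 21 were below those of day 0 as deposited and 7 were called lower, against 26.4% of 9698 genes. These were MTHFD1 (−3.44), PSAT1 (−3.22), MTHFD1L (−2.39), PHGDH (−2.32), MTHFD2 (−2.09), SHMT2 (−1.71) and TYMS (−1.53), and PSPH, SHMT1 and GLDC were not called. None was called higher, against 23.9%. The median difference was −1.90 for the enzymes and −0.11 for all genes. Scaling the libraries by the median of ratios raised all differences of this comparison by 0.19, which put PSPH (0.17) and GLDC (0.09) above 0 and left the 7 calls as they were.

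How far libraries can differ under the same factors is shown by days 9 and 11, which also hold any true change over 2 days. Of the enzymes 0 were called in either direction between them, against 1.04% of 8444 genes higher and 0.568% lower. Over genes of like level, the SD of the log2 difference between these days was 0.27 to 0.35, and 95% of genes differed by less than 0.53 to 0.66. Beyond that limit for its own level lay 5 of the 10 enzymes between days 3 and 0, 7 between days 7 and 3, 2 between days 13 and 7, 8 between days 21 and 13 and 8 between days 21 and 0. The differences of PSPH and GLDC between days 21 and 0 lay within it. The share of all genes beyond such a limit was not computed for these comparisons, so the counts have no background beside them. At the larger size of a call, 26.4% of all genes were already lower and 23.9% higher between days 21 and 0.

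**Figure D2:**
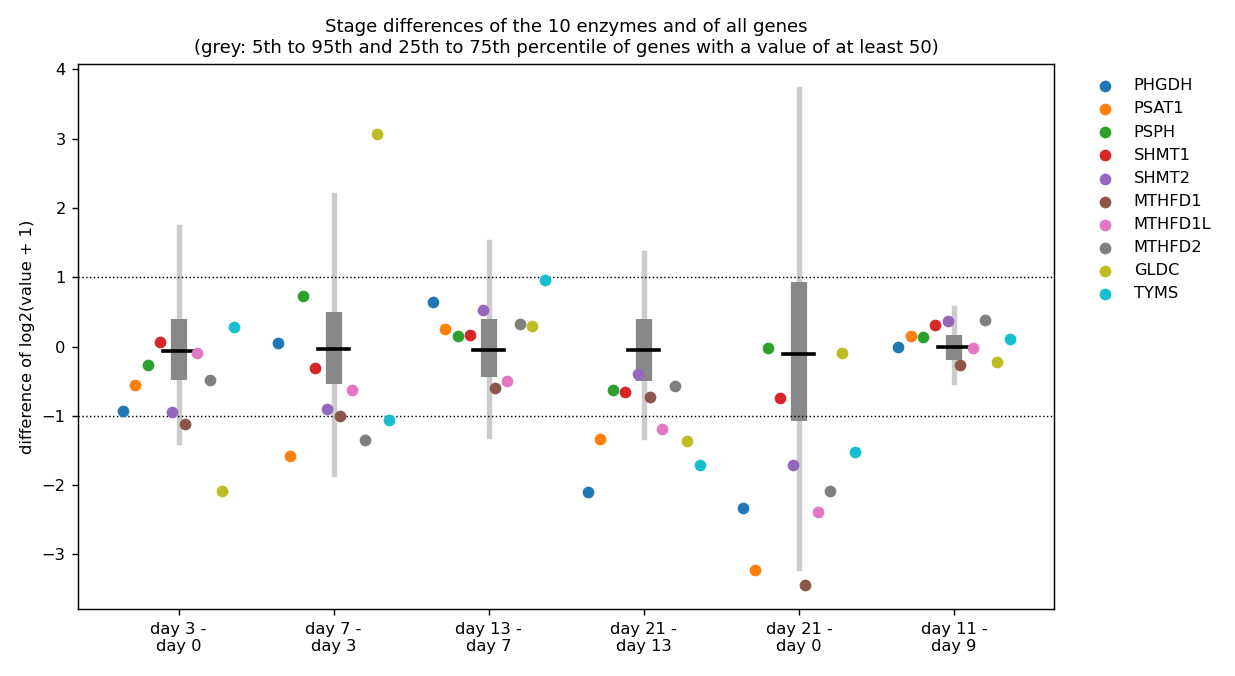
Difference of log2(value + 1) between the libraries named on the horizontal axis, 1 coloured point for each enzyme, over the 5th to 95th (thin grey), 25th to 75th (thick grey) percentile and median (black line) of all genes that reached 50 in either library, with dotted lines at the limits of a call. All 10 points lie below 0 between days 21 and 13 and between days 21 and 0 (in the latter PSPH and GLDC were above 0 after scaling by the median of ratios), and between days 11 and 9 none passes the dotted lines.

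The courses fell into a large block and a pair. Pearson r of log2(value + 1) over the 10 libraries was above 0.8 for 10 of the 45 pairs of enzymes, was below 0 for 12 and had a median of 0.59, which was 0.32 without day 21. It is a description, since successive days of a single course are not independent. Of the 10 pairs among PSAT1, SHMT2, MTHFD1, MTHFD2 and MTHFD1L, a set picked after the values were seen, 9 were above 0.8, and r ran from 0.70 to 0.94. Without day 21 the range was 0.80 to 0.96, so the likeness of these 5 was also present up to day 13. The other pair above 0.8 was PSPH with GLDC, at 0.89, and both had r of −0.62 with MTHFD2. PHGDH stood between them, with r of 0.65 with PSAT1 and 0.29 with GLDC. When day 21 was left out, its r was 0.30 with PSAT1 and 0.41 with GLDC, so their order depends on the last library. TYMS had r of 0.72 with PSAT1, and 0.41 without day 21.

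**Figure D3:**
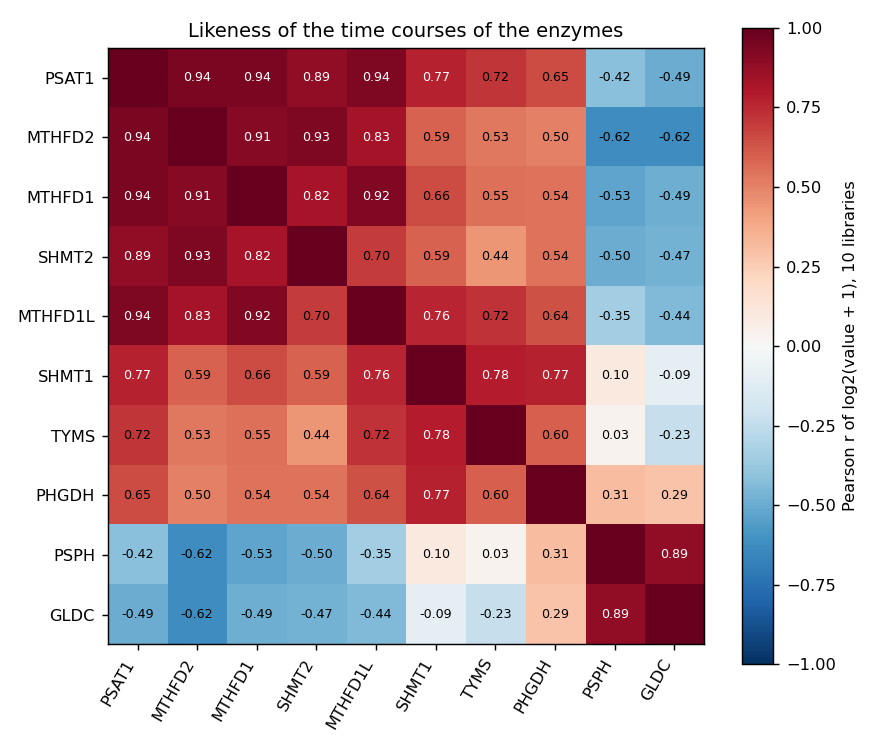
Pearson r of log2(value + 1) over the 10 libraries for every pair of enzymes, with the colour scale from −1 (blue) to 1 (red) and r printed in each cell. PSAT1, MTHFD2, MTHFD1, SHMT2 and MTHFD1L form the red block at the upper left, and PSPH and GLDC form a pair at the lower right that is blue against it.

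The genes of the whole table whose courses were most like those of the enzymes were found by the same r over 10 libraries. For PSAT1 they were DSCC1 (0.99), TARBP2 (0.98) and SF3A2 (0.98), and for MTHFD1 they were UBA2 (0.99), NAA50 (0.99) and HNRNPL (0.99). MTHFD2 was closest to CDCA7 (0.98), PRPS1 (0.98), a maker of the ribose phosphate of nucleotides, and YARS (0.98), a tyrosyl-tRNA synthetase. MTHFD1L was closest to BEND3 (1.00), CCT7 (0.99) and NOP58 (0.99), and SHMT2 to LEO1 (0.95), NMT1 (0.95) and TTI2 (0.95). For GLDC they were NEU3 (0.97), RAB4A (0.97) and PTPRF (0.96), and for PSPH they included KANK1 (0.98) and ACAN (0.97). PHGDH was closest to RP1-117O3.2 (0.97), PGD (0.96), an enzyme of the pentose phosphate pathway, and UQCRFS1 (0.94), and SHMT1 to RANGAP1 (0.93), SCAF1 (0.92) and PRR11 (0.91). TYMS was closest to RALY (0.96), ANLN (0.95) and TPX2 (0.95), of which the last 2 act in cell division.

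Genes of nucleotide synthesis were lower late as well. Of 10 enzymes of purine synthesis, which takes up formyl groups, 9 were called lower and 0 higher in the last library against the first, with a median difference of −2.26. Of all genes 26.4% were called lower and 23.9% higher in this comparison. PFAS went from 323 to 28, GART from 454 to 68, ATIC from 471 to 65 and PPAT from 252 to 39. Pyrimidine and deoxynucleotide synthesis had 9 of 10 lower and 0 higher, with a median of −2.19, RRM2, a subunit of ribonucleotide reductase, going from 320 to 28 and RRM1 from 273 to 34.

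The dip of TYMS at day 7 was also seen in some genes of DNA synthesis and division. Over days 0, 3, 7, 13 and 21 TK1, the thymidine kinase, had values of 154, 232, 42, 120 and 24, and DUT, which removes dUTP, had 195, 88, 41, 78 and 28. Unlike TYMS, DUT was already low at day 5, at 47. Of 14 proliferation genes, 9 were called lower and 0 higher between days 7 and 3, against 12.8% and 13.2% of all genes. Between days 13 and 7, 7 were called higher and 0 lower, against 9.65% and 8.21%. Between days 21 and 13, 14 of 14 were called lower, against 9.08%. Over days 0, 3, 7, 13 and 21 TOP2A, a topoisomerase of dividing cells, had 1087, 612, 149, 628 and 59, and CCNA2, a cyclin, had 305, 195, 39, 160 and 8. MCM7, of the same list, had 1064, 650, 492, 404 and 76, with day 13 below day 7. The part of proliferation in the values of the 10 enzymes was not tested.

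**Figure D4:**
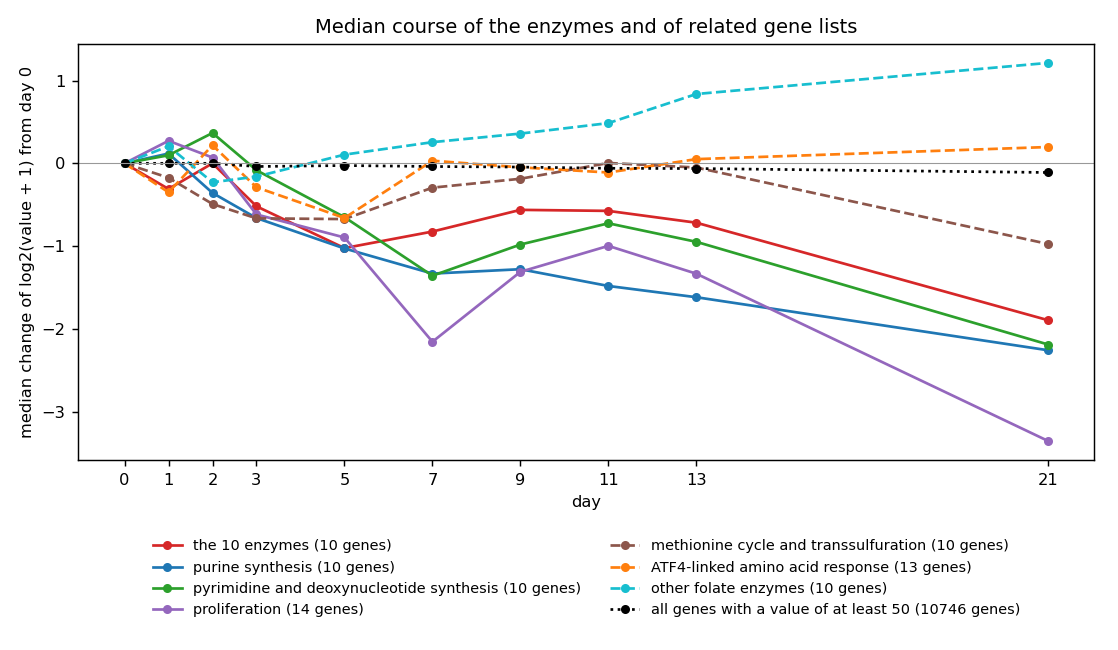
Median change of log2(value + 1) from day 0 (vertical axis) on each day (horizontal axis) over the genes of each list found in the table, with the number of genes in the legend. At day 21 the 10 enzymes stood at −1.90, purine synthesis at −2.26, deoxynucleotide and pyrimidine synthesis at −2.19 and proliferation at −3.36, while the other folate enzymes stood at 1.21 and all genes at −0.11.

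Other enzymes of the folate cycle were not lower as a group. Of 10 in the table, 9 reached a value of 50 in either library, and 5 of them were called higher and 2 lower in the last library against the first. Of all genes 23.9% were called higher and 26.4% lower. The median difference was 1.21. FTCD, which takes a one-carbon unit from histidine breakdown in the liver, had values of 8, 20, 137, 306 and 133 over days 0, 3, 7, 13 and 21. ALDH1L1, which oxidizes formyl-tetrahydrofolate in the cytosol, had 16, 6, 46, 65 and 76, and its mitochondrial relative ALDH1L2 had 26, 9, 9, 58 and 84. Of 4 genes of folate uptake 3 reached 50 in either library, and 1 was called higher and 0 lower: SLC46A1, the proton-coupled folate carrier, went from 26 to 260. FOLR1, a folate receptor, was listed at 0 in the stem cells and had 112 at day 9 and 33 in the last library.

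The partners of GLDC in the glycine cleavage system differed from it in course. GCSH, the carrier protein of that system, had values of 221, 234, 113, 110 and 26 over days 0, 3, 7, 13 and 21. AMT, the aminomethyltransferase, had 132, 54, 84, 88 and 104. Its log2 differences were −1.27 between days 3 and 0 and 0.63 between days 7 and 3, beside −2.09 and 3.06 for GLDC. DLD, which serves other dehydrogenase complexes too, had 346, 387, 336, 490 and 240. At day 21 against day 0, 1 of these 3 was called lower and 0 higher, against 26.4% and 23.9% of all genes.

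Genes that move or break down serine and glycine were few. Of all genes 23.9% were called higher and 26.4% lower at day 21 against day 0. Of 7 transporters 6 reached 50 in either library, and 2 were called higher and 1 lower. SFXN3, a mitochondrial serine carrier, had values of 3, 24, 72, 178 and 346 over days 0, 3, 7, 13 and 21, SLC1A4, a carrier of serine and alanine, went from 12 to 72, and SLC38A1, a neutral amino acid carrier of the plasma membrane, from 956 to 196. Of 5 breakdown enzymes found, out of 12 listed, only 3 reached 50 in either of these libraries, and of them 1 was called higher and 2 lower. GLYCTK, which phosphorylates glycerate in serine breakdown, had values of 2, 11, 302, 496 and 192 over these days, with its 4 highest libraries at days 7 to 13, as for GLDC. PIPOX, which oxidizes pipecolate and sarcosine, went from 146 to 9, and GCAT, of threonine breakdown, from 74 to 9.

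Where folate carbon meets methionine, 9 of 10 genes reached 50 in either library, and 1 was called higher and 4 lower at day 21 against day 0. Of all genes 23.9% were called higher and 26.4% lower. The median over the 10 was −0.98. MAT1A, the methionine adenosyltransferase of adult liver, was listed at 0 at day 3, and over days 0, 7, 13 and 21 it had values of 26, 7, 14 and 90. MTR, which moves the methyl group from folate to homocysteine, had 122, 50, 280 and 175 on these days. CBS, which condenses serine with homocysteine, had 1734, 980, 512 and 247.

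The amino acid response, through which the factor ATF4 is known to act on PHGDH, PSAT1, SHMT2 and MTHFD2, had called shares near those of all genes. Of 13 genes of that list 11 reached 50 in either library, and 2 were called higher and 3 lower at day 21 against day 0, against 23.9% and 26.4% of all genes, with a median of 0.20. ASNS, the asparagine synthetase, had values of 527, 99, 242 and 69 over days 0, 7, 13 and 21, and CHAC1, which degrades glutathione, had 110, 3, 34 and 8. DDIT4, an inhibitor of mTORC1 signalling, had 462, 36, 125 and 668, and DDIT3, a stress-induced factor, had 14, 84, 72 and 116.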

How the data were processed

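Bulk RNA-seq of H1 cells over 21 days of hepatic differentiation gave 10 libraries, 1 per day sampled. Per the methods, the authors quantified reads with RSEM (v1.2.17, over Bowtie2 v2.2.0) against Ensembl 76 transcripts, and EDASeq removed the effect of GC content. The methods name mm10 and the submitters' processing notes name mm10 and hg19. The values the authors deposited are scores, whole numbers with nearly the same distribution in each library (median 81 or 82), so the depth of each library is unknown and no count model, interval or p-value was computed. The methods state only a shallow average depth, from a MiSeq run.

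Columns were matched to days by name. Differences of log2(value + 1) understate low genes. Genes were called at a difference of at least 1 where the larger value was at least 50. Shares, medians and Pearson r were computed with Python 3.11.15, numpy 2.4.6 and pandas 2.3.3 and checked on simulated data, and plots drawn with matplotlib 3.10.9. Promoter windows came from RefSeq (GRCh38.p14) by symbol, overlaps and pseudogenes from the annotation given with the reference (GENCODE release 29).

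The genes named are all members, up to 4 called genes per pathway list with the widest range, the 3 genes most like each member, and the marker lists. A few genes that this rule names are not reported here. The members and lists were chosen with earlier results of these data known. Alternatives were another pseudocount (0.1 or 5), scaling, minimum (200 or none), size of a call (log2 of 2) and neighbouring day. A planned comparison of the proteins of the paralogues is not analysed here.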

Additional observations from a re-analysis of the deposited data

How the results depend on the processing

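Under both other pseudocounts and both other scalings, 0 of 200 single-enzyme values moved by more than the spread of days 9 and 11 and 0 called values reversed. Scaling shifted all genes of a comparison alike, by a median of 0.19 at most. The smallest spread was 0.27, so scaling could not have moved a value past it and does not test the normalization. With no enzyme value below 38, the pseudocounts had little effect either. The uncalled PSPH and GLDC stood above 0 at day 21 against day 0 under the median of ratios. Of 250 single-enzyme values in all, those beyond these 200 took a neighbouring day in place of a stage's library. Most of them did not hold: 28 moved by more than the spread and 2 called ones reversed. Most stage differences of single enzymes thus depend on which library stands for the stage. Both reversed values were of TYMS. Its log2 difference was 0.15 with day 5 in place of day 7 against day 3, and 0.18 with day 13 in place of day 21 against day 0. Of 83 alternative member counts 7 moved by over 1.5 times. At a log2 difference of at least 2, 1 enzyme in place of 2 was called lower between days 3 and 0, 0 in place of 4 between days 7 and 3 and 1 in place of 5 between days 21 and 13. With day 2 in place of day 3, 1 was lower than at day 0, and with day 5 in place of day 7, 1 was lower than at day 3. With day 13 in place of day 21, 1 (GLDC) was called higher than at day 0 in place of 0. Scaling by the median of ratios called 1 (TYMS) higher between days 13 and 7 in place of 0. Scalings left 7 enzymes lowest at day 21, and leaving day 21 out gave 11 in place of 10 pairs with r above 0.8, checks chosen after seeing the data. No paired analysis was possible because each day has 1 library. Without day 21 the median r fell from 0.59 to 0.32. The stated average depth is shallow and that of each library is unknown, so low values are the least certain.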
